A study of Mus musculus with 16 samples.

Results

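The genes described here encode 10 receptors for inflammatory mediators: the prostaglandin E2 receptors EP1 to EP4 (Ptger1, Ptger2, Ptger3 and Ptger4), the prostacyclin receptor IP (Ptgir), the bradykinin B2 receptor (Bdkrb2), the protease-activated receptor PAR2 (F2rl1), the histamine H1 receptor (Hrh1), the signalling interleukin-1 receptor (Il1r1) and TNF receptor 1 (Tnfrsf1a). They were taken by gene symbol from the 24982 entries of the count table, and all 10 passed the filter on low counts that left 15507 genes for testing. RNA was sequenced from lumbar (L4 to L6) dorsal root ganglia, which hold the cell bodies of sensory neurons, on the side of the injected ankle. All mice were on the C57BL/6 strain and 10 to 12 weeks old. They were wild-type (WT) or carried the TrkA/C knock-in (KI), whose construct the labels do not describe. They were sampled 14 days after an injection into the ankle joint of vehicle, named saline in the titles, or of complete Freund's adjuvant (CFA), which provokes lasting joint inflammation. The 4 groups were WT vehicle, WT CFA, KI vehicle and KI CFA, with 4 libraries each, and each library pooled 6 ganglia from 2 mice. Ganglia hold neurons, glia, vessels and immune cells together, so a lower level from fewer cells of a type and a lower level from less RNA per cell cannot be told apart.

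Library totals ran from 22742209 to 40910947 counts, so that 3 counts equal 0.0733 to 0.132 CPM, which is a read count rescaled to a common library size. Ntrk3, the gene of TrkC, lay between 29.3 and 61.4 CPM in the 8 WT libraries and between 99.1 and 138 CPM in the 8 KI libraries. For WT CFA 1 the title names a wild-type, while the genotype tag reads knock-in. Ntrk3 in this library lay among the values of the other WT libraries. Ptgir did so too, but it is tested below between groups that include this library, so it cannot bear on the label. The summed level of 6 pan-neuronal markers lay between 8370 and 10227 CPM in all 16 libraries, with KI vehicle (8370 to 8910) below WT vehicle (9399 to 9854) and KI CFA (8990 to 9680) overlapping WT CFA (9491 to 10227). The summed level of 6 skeletal muscle markers ran from 4.19 to 624 CPM within KI vehicle and stayed at or under 48.0 CPM in the other 3 groups. The summed level of 6 neutrophil markers reached 228 CPM in KI CFA 3.

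Tissue injury releases prostaglandins, bradykinin, histamine, proteases and cytokines, and nerve endings of nociceptors, the neurons that report damaging stimuli, carry receptors for them. EP2, EP4 and IP couple mainly to the stimulatory G protein and raise cyclic AMP, EP3 couples mainly to the inhibitory G protein, and B2, H1 and PAR2 act largely through phospholipase C and protein kinase C. The interleukin-1 and TNF receptors have no G protein and signal through adaptor proteins to NF-kappaB and MAP kinases. These routes, apart from the inhibitory one of EP3, are known to lower the threshold of channels such as TRPV1.

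Promoter windows, the 250 bases upstream of an annotated start in RefSeq (GRCm38.p6, the mm10 build), were found for 8 of the 10 genes. They are shown for Ptgir, the member that was called between genotypes, and for Ptger3 and Ptger4, receptors of the same family that were not. Capitals mark GC boxes, the letters GGGCGG on either strand. Each window is printed 5′ to 3′ on the strand of its gene: Ptgir at chr7:16906240-16906489 on the plus strand, Ptger3 at chr3:157566626-157566875 on the plus strand, and Ptger4 at chr15:5244188-5244437 on the minus strand.
Ptgir: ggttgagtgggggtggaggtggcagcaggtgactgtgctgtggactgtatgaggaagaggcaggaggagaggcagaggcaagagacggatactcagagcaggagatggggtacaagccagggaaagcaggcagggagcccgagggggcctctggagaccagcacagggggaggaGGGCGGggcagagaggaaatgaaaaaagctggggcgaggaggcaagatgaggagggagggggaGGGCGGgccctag
Ptger3: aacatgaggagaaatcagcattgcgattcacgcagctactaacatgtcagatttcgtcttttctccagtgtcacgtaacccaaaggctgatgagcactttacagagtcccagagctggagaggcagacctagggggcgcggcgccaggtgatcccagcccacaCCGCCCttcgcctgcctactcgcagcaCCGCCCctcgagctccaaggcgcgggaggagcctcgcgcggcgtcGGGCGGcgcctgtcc
Ptger4: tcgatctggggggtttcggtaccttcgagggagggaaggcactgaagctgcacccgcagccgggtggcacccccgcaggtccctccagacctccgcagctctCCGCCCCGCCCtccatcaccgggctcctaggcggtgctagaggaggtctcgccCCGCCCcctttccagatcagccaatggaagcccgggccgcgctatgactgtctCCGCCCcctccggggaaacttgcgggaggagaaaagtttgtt
The windows held 2, 3 and 4 GC boxes for Ptgir, Ptger3 and Ptger4, where 32.7% of 32851 RefSeq windows of the same length held at least 1, and boxes of Ptger4 share letters where they run together. In Ptgir the boxes began 76 and 13 bases before the start. GC content was 63.6%, 62.0% and 66.8% in that order, against a median of 52.4% over all windows. The Ptger3 window runs up to a start inside the annotated span of the gene, which begins at 157566821. Its last GC box lies within that span. Other motifs were searched on both strands too. The cyclic AMP response element half-site, TGACG, was in none of the 3 windows and in 17.8% of all windows. The AP-1 letters TGANTCA were in none of the 3 and in 6.75% of all. An E-box, CANNTG, was found once each in Ptgir and Ptger3, and 66.2% of all windows held one. The window of Ptger2, a receptor of the same family also not called, is not printed and differed. It held 0 GC boxes and 3 E-boxes, with a GC content of 38.0%.

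Levels of different genes were compared as CPM per kilobase of annotated exon, averaged over 16 libraries. Ptgir stood highest at 20.3, followed by Tnfrsf1a at 12.7, Ptger3 at 5.84, Ptger1 at 5.26 and Ptger4 at 4.11. Il1r1 followed at 1.43, Hrh1 at 0.907, Bdkrb2 at 0.624, Ptger2 at 0.290 and F2rl1 at 0.191. Over the 16 libraries the ranges of neighbours overlapped for Ptgir and Tnfrsf1a, for Ptger3 and Ptger1, and for each step from Il1r1 down to F2rl1. They did not overlap between Tnfrsf1a and Ptger3, Ptger1 and Ptger4, or Ptger4 and Il1r1. The distance between the leading pair differed with genotype, and Ptgir had the higher mean in all 4 groups. In WT, Ptgir averaged 26.7 CPM per kilobase after vehicle and 28.8 after CFA, above Tnfrsf1a at 13.9 and 13.3, with no overlap of libraries. In KI the same scale gave 13.2 and 12.6 for Ptgir against 11.6 and 12.1 for Tnfrsf1a, and the library ranges overlapped.

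**Figure D1:**
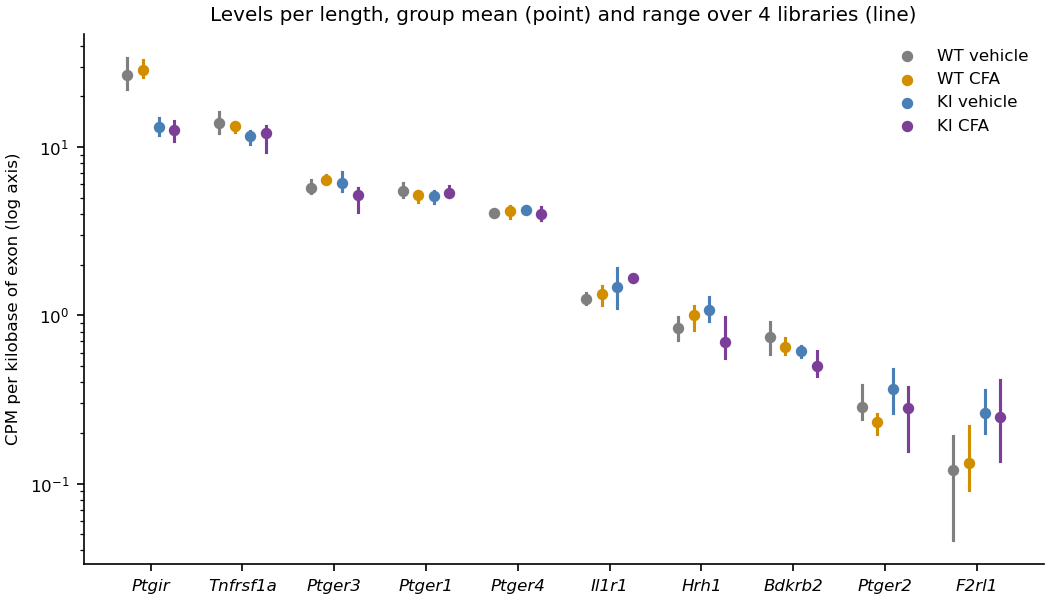
Level of each receptor gene in CPM per kilobase of exon on a log axis, with the mean (point) and the range of 4 libraries (line) in each of the 4 groups. Ptgir and Tnfrsf1a lie highest, Ptger2 and F2rl1 lowest, and the Ptgir points of the KI groups lie beside those of Tnfrsf1a.

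Of the 5 prostanoid receptors among these 10 genes, Ptgir alone was called between genotypes. Ptgir (Entrez 19222, chromosome 7, 16906490 to 16910905) encodes the receptor through which prostacyclin raises cyclic AMP. Its level in the 4 WT vehicle libraries was 73.5, 82.1, 86.0 and 112 CPM, and in the 4 WT CFA libraries 86.5, 96.3, 109 and 88.9 CPM. In KI vehicle it was 49.0, 38.7, 44.1 and 42.2 CPM, and in KI CFA 47.4, 35.8, 37.8 and 45.2 CPM. Every KI library lay below every WT library, with the highest KI value at 49.0 CPM and the lowest WT value at 73.5 CPM. Among WT the group means (SD, n = 4) were 88.4 ± 16.5 CPM for vehicle and 95.1 ± 10.0 CPM for CFA, and among KI 43.5 ± 4.31 and 41.5 ± 5.62 CPM.

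With vehicle, Ptgir fell in KI by 1.02 ± 0.12 on the log2 scale (SE, edgeR adjusted p = 0.000105, 95% interval -1.27 to -0.77), to 0.49 times the WT level. With CFA it fell by 1.20 ± 0.12 (edgeR adjusted p = 1.25e-05, interval -1.44 to -0.95), and over both injections by 1.11 ± 0.08 (edgeR adjusted p = 1.63e-07). By p-value Ptgir ranked 12, 9 and 9 among the 15507 genes in these comparisons. It was the 1 member called among 10 in each. Of all genes tested, 4.34% were called with vehicle, 2.84% with CFA and 8.96% over both injections. A single call among 10 genes does not set this group apart from all genes tested. The median log2 difference of the 10 members was 0.08 with vehicle, -0.09 with CFA and -0.06 over both, beside 0.00 over all genes each time. Without WT CFA 1 the CFA difference of Ptgir was -1.24. Without KI vehicle 1 and 4, the libraries with the most muscle RNA, the vehicle difference was -1.09.

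**Figure D2:**
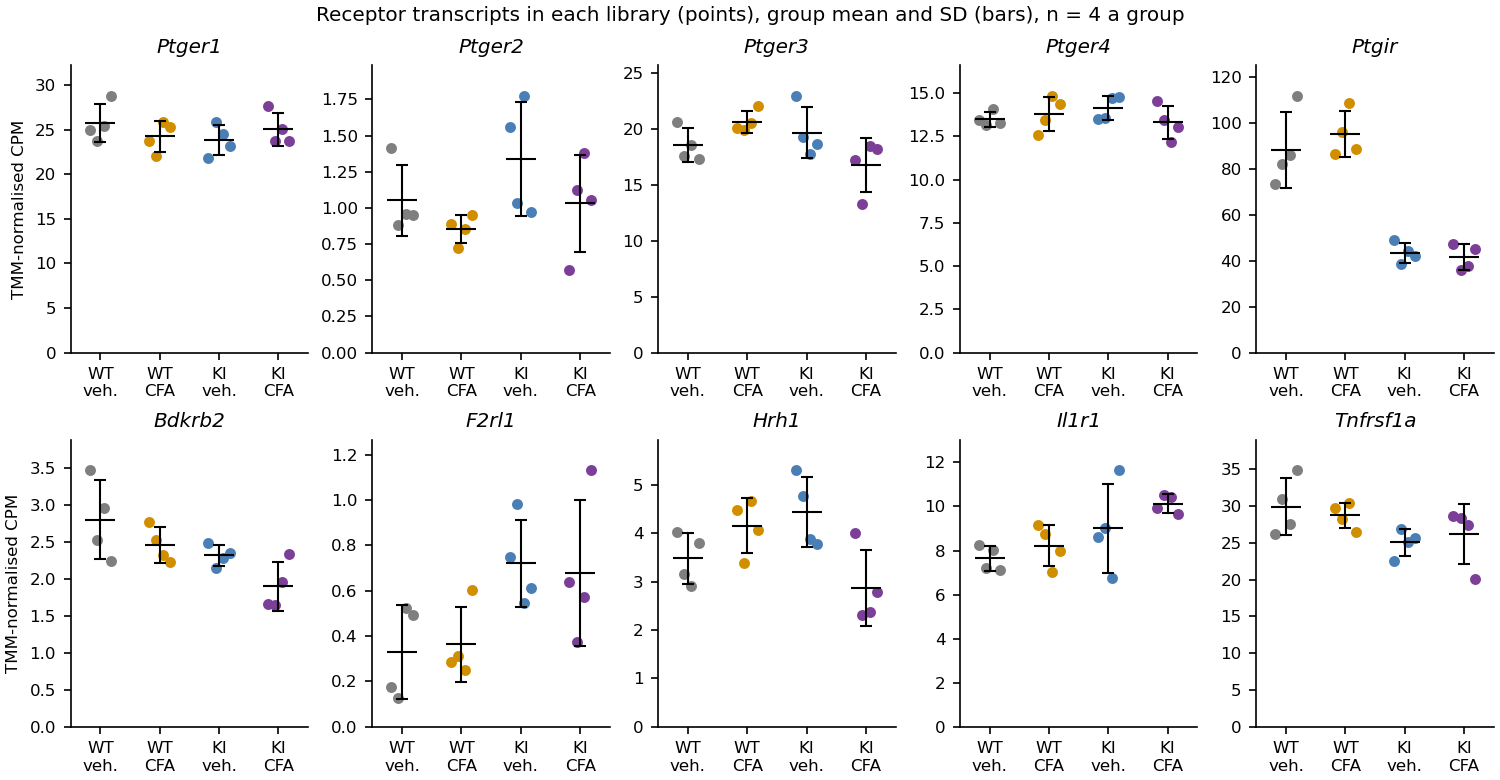
Level of each of the 10 receptor genes in CPM (linear axes from 0, 1 panel a gene), with 1 point a library, and the mean and SD of 4 libraries for each group. The KI libraries of Ptgir lie between 35.8 and 49.0 CPM and the WT libraries between 73.5 and 112 CPM, while groups overlap in most other panels.

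Markers of peptidergic nociceptors, the neurons that make calcitonin gene-related peptide and substance P, moved with Ptgir. All 6 fell in KI with vehicle and with CFA, with median log2 differences of -0.74 and -0.67. The most abundant named one, Calca, which encodes calcitonin gene-related peptide, fell by 0.91 and 0.71 on the log2 scale. Adcyap1, which encodes the neuropeptide PACAP, fell by 0.47 and 0.63, and Tac1, the substance P precursor, fell by 0.57 and 0.49. Their summed level was 1825 to 2804 CPM in WT vehicle and 1867 to 2200 in WT CFA, against 1040 to 1119 in KI vehicle and 1074 to 1262 in KI CFA. WT vehicle 4 had both the highest Ptgir level and the highest summed marker level of all libraries. This library also had the highest summed levels of 6 satellite glia markers (4599 CPM) and 6 endothelial markers (121 CPM). Without it the vehicle difference of Ptgir was -0.89. The summed levels of 6 non-peptidergic nociceptor markers were 1717 to 2102 CPM in WT vehicle and 2285 to 2474 in KI vehicle, and 4 of the 6 rose there. With CFA they were 2180 to 2226 CPM in WT and 2332 to 2576 in KI, and 1 of the 6, Mrgprd, rose. Of the 6 pan-neuronal markers Stmn2 and Tubb3 fell with vehicle and Tubb3 with CFA, and the median log2 differences of the list were -0.09 and -0.07. Of 6 A-fibre markers, Ntrk3 among them, 4 rose with vehicle and 5 with CFA, and their summed levels overlapped between genotypes. The part of these cell types in the Ptgir difference was not tested.

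**Figure D3:**
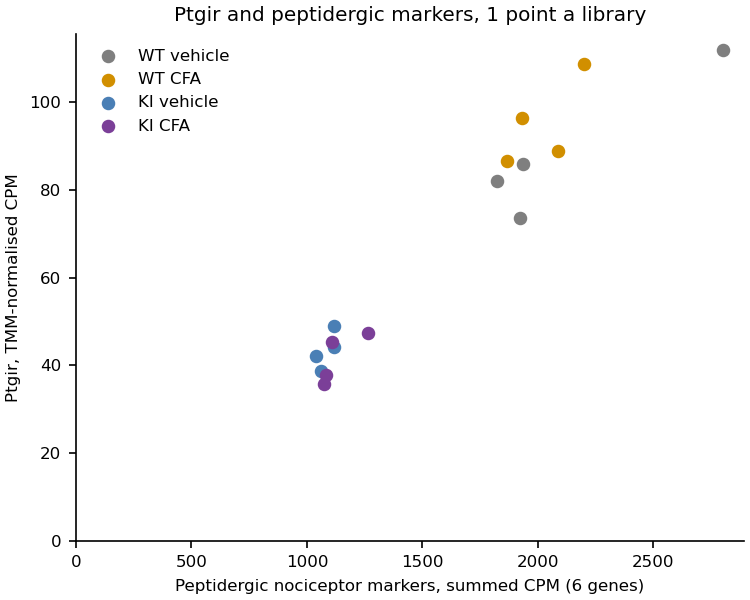
Ptgir in CPM against the summed CPM of the 6 peptidergic nociceptor markers, 1 point a library, in the 4 groups. The 8 KI libraries lie at low values of both measures and the 8 WT libraries at higher values of both, with WT vehicle 4 farthest out.

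Across the 16 libraries the genes whose log2 CPM ran most like Ptgir were Gap43, a growth cone protein, with Pearson r = 0.98, Adcyap1 with 0.97 and Stk32c, a kinase, with 0.97. Within groups, on deviations from group means, these r were 0.70, 0.84 and 0.79. These libraries share the genotype contrast, and the within-group values rest on 4 libraries a group, so r is given as a description. Ptgir made up 62.9 ± 4.21% (SD, n = 4) of the summed CPM per kilobase of these 5 prostanoid receptors in WT vehicle and 64.3 ± 2.35% in WT CFA. In KI vehicle and KI CFA the share was 45.4 ± 2.18% and 45.8 ± 2.39%. The other 4 receptors summed to 15.5 and 15.9 CPM per kilobase among WT (vehicle, CFA) and to 15.8 and 14.8 among KI.

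None of the 4 prostaglandin E2 receptors was called between genotypes. Ptger1 (Entrez 19216, chromosome 8, 83666644 to 83672756), which encodes EP1, a receptor that raises calcium, lay between 21.8 and 28.8 CPM in all libraries. Its log2 difference in KI was -0.11 ± 0.08 with vehicle (edgeR adjusted p = 0.429) and 0.05 ± 0.08 with CFA (0.907). Ptger4 (Entrez 19219, chromosome 15, 5233399 to 5244187), which encodes the cyclic AMP-raising EP4, was the steadiest of the 10 genes, with a biological coefficient of variation (BCV, the spread between libraries beyond counting) of 7.44%. It lay between 12.2 and 14.8 CPM in all libraries. The 95% interval of its KI difference ran from -0.09 to 0.23 with vehicle and from -0.21 to 0.11 with CFA.

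Ptger3 (Entrez 19218, chromosome 3, 157566821 to 157644758), which encodes the inhibitory EP3, had groups that did not overlap after CFA. It was 20.1, 19.8, 20.5 and 22.1 CPM in WT CFA and 17.2, 13.2, 18.5 and 18.2 CPM in KI CFA. The highest KI CFA library lay below the lowest WT CFA library. The log2 difference was -0.30 ± 0.10 (edgeR adjusted p = 0.161), so Ptger3 was not called, and with vehicle it was 0.08 ± 0.10 (0.664). How many of all genes separate as Ptger3 did after CFA was not counted. By chance alone, 4 against 4 libraries separate fully with a probability of 0.0286. Of all genes tested, 12.7% with CFA and 23.8% with vehicle had an unadjusted edgeR p under 0.05 between genotypes. Ptger2 (Entrez 19217, chromosome 14, 44988111 to 45003820), which encodes EP2, was low, between 0.57 and 1.77 CPM, and its intervals were wide, -0.27 to 0.95 with vehicle and -0.34 to 0.89 with CFA. Its BCV was 24.0%.

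Among the receptors for bradykinin, proteases and histamine, none was called between genotypes. F2rl1 (Entrez 14063, chromosome 13, 95511718 to 95525240), whose receptor is opened by proteases that cut its own outer end, was the scarcest member and varied most, with a BCV of 36.2%. Its counts were 5, 4, 12 and 13 in WT vehicle and 22, 37, 16 and 17 in KI vehicle, and 9, 9, 7 and 21 in WT CFA against 20, 13, 22 and 46 in KI CFA. The vehicle groups did not overlap, while the CFA groups did, and how many of all genes separate like this was not counted. The log2 difference was 1.17 ± 0.47 with vehicle (edgeR adjusted p = 0.143), 0.89 ± 0.45 with CFA (0.446) and 1.03 ± 0.33 over both (0.0569). Over both injections F2rl1 was called with DESeq2 (adjusted p = 0.0286), with limma-voom (0.0178) and when WT vehicle 3, WT vehicle 4, WT CFA 4 or KI CFA 2 was left out, where the differences were 1.18, 1.17, 1.21 and 1.13. In all, 7 of 25 alternatives called it, and the lowest difference was 0.84, without KI CFA 4.

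Bdkrb2 (Entrez 12062, chromosome 12, 105563172 to 105595244), the receptor of intact bradykinin, averaged (SD, n = 4) 2.80 ± 0.53 CPM after vehicle and 2.46 ± 0.24 CPM after CFA among WT, against 2.31 ± 0.14 and 1.90 ± 0.33 CPM among KI. Its log2 difference in KI over both injections was -0.32 ± 0.12 (edgeR adjusted p = 0.117), with overlapping groups, and limma-voom called it (-0.37, adjusted p = 0.0459). That was the 1 of 26 alternatives that called Bdkrb2. Hrh1 (Entrez 15465, chromosome 6, 114397936 to 114483298), the receptor through which histamine raises calcium, had genotype differences of opposite sign after vehicle and after CFA. The Hrh1 level was 4.03, 3.16, 2.91 and 3.80 CPM in WT vehicle and 5.30, 4.77, 3.89 and 3.78 CPM in KI vehicle. In WT CFA it was 4.49, 3.38, 4.67 and 4.06 CPM and in KI CFA 4.01, 2.30, 2.37 and 2.78 CPM. The genotypes overlapped after both injections, and 3 of the 4 KI CFA libraries lay below every other library. The log2 difference in KI was 0.35 ± 0.19 with vehicle (edgeR adjusted p = 0.261) and -0.54 ± 0.19 with CFA (0.167). Without KI CFA 1 the CFA difference was -0.74 and was called (edgeR adjusted p = 0.0312). This was the 1 of 27 alternatives that called it, and their differences ran from -0.74 to -0.45.

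The cytokine receptors were not called either. Il1r1 (Entrez 16177, chromosome 1, 40222480 to 40316201), which binds interleukin-1 alpha and beta, was 9.16, 8.73, 7.02 and 7.98 CPM in WT CFA and 9.93, 10.5, 10.4 and 9.64 CPM in KI CFA. These groups did not overlap, while the vehicle groups did, with KI vehicle between 6.75 and 11.6 CPM. How many of all genes separate this way was again not counted. The log2 difference in KI was 0.24 ± 0.13 with vehicle (edgeR adjusted p = 0.290), 0.30 ± 0.13 with CFA (0.324) and 0.27 ± 0.09 over both (0.0789). Over both injections it was called with DESeq2 (0.27, adjusted p = 0.0425) and without KI vehicle 3 (0.33, edgeR adjusted p = 0.0201). These were the 2 of 26 alternatives that called it, and the lowest difference was 0.18, without KI vehicle 1 and 4. The summed level of 6 endothelial markers, cells that also carry this receptor, ran from 73.9 to 114 CPM in WT CFA and from 85.5 to 110 CPM in KI CFA, and its part in the difference was not tested. Tnfrsf1a (Entrez 21937, chromosome 6, 125349723 to 125362483), the receptor that carries most responses to soluble TNF, averaged (SD, n = 4) 29.9 ± 3.84 CPM after vehicle and 28.7 ± 1.75 CPM after CFA among WT, against 25.1 ± 1.82 and 26.1 ± 4.10 CPM among KI. Its difference over both injections was -0.19 ± 0.08 (edgeR adjusted p = 0.120).

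**Figure D4:**
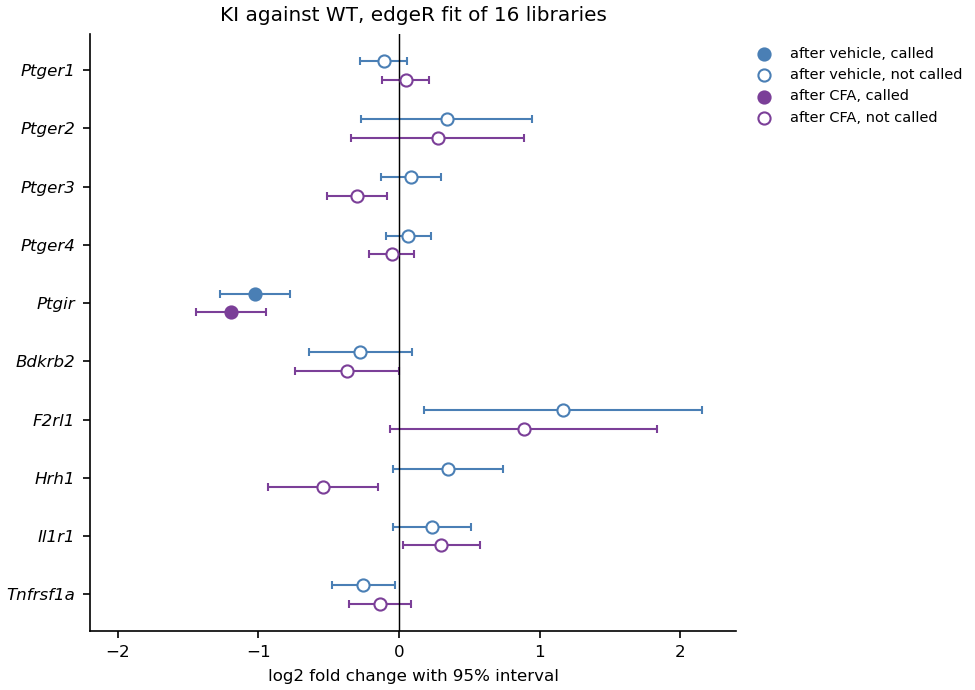
Log2 difference of KI against WT for the 10 receptor genes, after vehicle and after CFA, with 95% intervals; filled points passed an edgeR adjusted p of 0.05. Ptgir lies near -1 after both injections and is the member with filled points, and the interval of F2rl1 is the widest.

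CFA against vehicle gave no call among the members in either genotype. In WT, 0 of 15507 genes (0%) were called by edgeR, 1079 had an unadjusted p under 0.05, none of them a member, and DESeq2 and limma-voom called 11 and 1 genes with no member. In KI, edgeR again called 0 genes (0%), 881 had an unadjusted p under 0.05, 2 of them members (Hrh1 and Ptger3), and DESeq2 and limma-voom called 15 and 0 with no member. Over both genotypes 4 genes (0.0258%) were called and no member, with 1019 genes and no member at an unadjusted p under 0.05. DESeq2 and limma-voom called 57 and 7 genes there, with no member. For Ptgir the 95% interval ran from -0.14 to 0.35 in WT and from -0.32 to 0.18 in KI, for Ptger4 from -0.13 to 0.19 and from -0.25 to 0.07, and for Tnfrsf1a from -0.28 to 0.16 and from -0.17 to 0.28. For F2rl1 it ran from -0.85 to 1.23 in WT and from -0.98 to 0.80 in KI.

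Hrh1 had the largest CFA difference in KI of the 10 members, -0.64 ± 0.19 (edgeR adjusted p = 0.439), against 0.25 ± 0.19 in WT (0.723). In KI its mean was 4.44 ± 0.73 CPM (SD, n = 4) after vehicle and 2.86 ± 0.79 after CFA. The interaction, the test of whether the CFA difference itself depends on genotype, was -0.89 ± 0.26 for Hrh1 (unadjusted p = 0.00329, edgeR adjusted p = 0.718). For Ptger3 it was -0.38 ± 0.14 (unadjusted p = 0.0164, edgeR adjusted p = 0.718), and for Ptgir -0.17 ± 0.17 (edgeR adjusted p = 0.772). No gene (0%) was called by edgeR for the interaction, 976 genes including Hrh1 and Ptger3 had an unadjusted p under 0.05, and DESeq2 and limma-voom called 0 each.

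**Figure D5:**
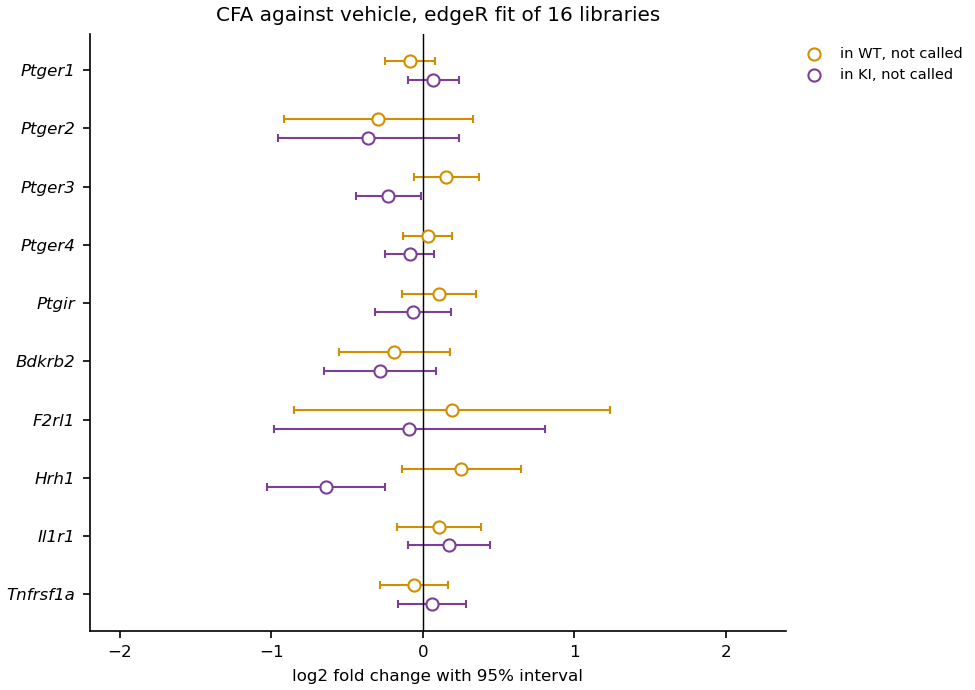
Log2 difference of CFA against vehicle for the 10 receptor genes in WT and in KI, with 95% intervals; no point passed an edgeR adjusted p of 0.05. Most intervals span 0, and those of Hrh1 and Ptger3 in KI lie below it.

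Genes around these receptors were read from lists by role. The share of all genes called in KI against WT, given above, was 4.34% with vehicle, 2.84% with CFA and 8.96% over both injections. Of 14 tested other receptors for the same mediators, F2r, the thrombin receptor PAR1, fell in KI with vehicle (-0.80 ± 0.12, edgeR adjusted p = 0.000808) and with CFA (-0.81 ± 0.11, 0.000628), and the other 13 were not called in either. F2r averaged 19.9 ± 1.72 and 20.4 ± 2.07 CPM (SD, n = 4) in WT vehicle and WT CFA and 11.5 ± 1.56 and 11.7 ± 1.76 CPM in KI vehicle and KI CFA. Over both injections Ptgfr, the prostaglandin F receptor, also fell (-0.32 ± 0.08, edgeR adjusted p = 0.0173) and Ptgdr, a prostaglandin D receptor, rose (0.17 ± 0.05, 0.0324). The inducible bradykinin B1 receptor gene Bdkrb1 had 0 counts in 15 of 16 libraries.

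Among genes of mediators and of the enzymes that make or remove them, 20 of 32 had counts enough to be tested. Ptgs2, the inducible cyclooxygenase, averaged 0.13 CPM over 16 libraries, Il1b 0.23 CPM and Tnf 0.07 CPM, while Ptges, a prostaglandin E synthase, averaged 9.11 CPM. Ptgis, the enzyme that makes prostacyclin, averaged 0.87 CPM. Of the 20 tested, 0 were called with vehicle or with CFA, and Mme, a peptidase that degrades bradykinin and substance P, rose over both injections (0.30 ± 0.07, edgeR adjusted p = 0.0125). None of the 26 genes of the interleukin-1 and TNF adaptor arm was called in KI against WT with vehicle, with CFA or over both.

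Of 29 tested genes of the G protein, cyclic AMP and phospholipase C arm, 2 rose with vehicle, the adenylyl cyclase Adcy8 (0.53 ± 0.12) and the protein kinase C gene Prkcd (0.19 ± 0.05). With CFA 1 fell, the adenylyl cyclase Adcy2 (-0.24 ± 0.06). Over both injections, where 8.96% of all genes were called, 8 rose and 3 fell. The 4 with the smallest p were Adcy2 (-0.22 ± 0.04) and Rapgef4 (-0.15 ± 0.03), which encodes a cyclic AMP sensor, among those that fell, and Adcy8 (0.41 ± 0.09) and the phospholipase C gene Plcb3 (0.18 ± 0.05) among those that rose. Of 14 ion channel genes known as targets of sensitisation, 2 rose and 2 fell after each injection. Among all genes, 4.34% were called with vehicle and 2.84% with CFA. Trpv1, the heat and capsaicin channel, fell by 0.45 and 0.59 on the log2 scale with vehicle and CFA, and Asic3, an acid-sensing channel, fell by 0.39 and 0.41. Ano1, a calcium-activated chloride channel, rose by 0.87 and 0.73. Scn11a, a sodium channel of nociceptors, rose with vehicle (0.33), and Hcn2, a pacemaker channel, rose with CFA (0.31). Scn11a is also on the list of non-peptidergic markers and was counted there too. In these lists no gene was called for CFA against vehicle or for the interaction.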

How the data were processed

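Read counts per gene were deposited by the authors as raw counts for 16 libraries. Per the labels' protocols, libraries came from 150 ng of RNA by poly-A selection with a strand-selecting kit and were read as 50-base single ends. The submitters' processing notes name build mm10, HTSeq 0.6.1p1, TopHat2 2.1.1, SAMtools 1.5, Bowtie2 2.3.5.1, FastQC and bcl2fastq 2.20. The annotation and strand setting are not given in the sources used here. Counts of members that share exon bases with the opposite strand's annotation (Ptger1 and Ptger2) are therefore uncertain. Entries with no Entrez identifier (28, with 0.192% of counts) stayed in. Libraries were not tied to lanes in the labels, so no sequencing batch was tested.

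Groups came from the titles. The edgeR 4.0.16 quasi-likelihood test (R 4.3.3) was fitted to all 16 libraries with 1 mean per group, TMM factors and filterByExpr, for 7 comparisons. Calls needed an adjusted p (Benjamini-Hochberg over all 15507 genes tested) under 0.05. CPM values are TMM-normalised, and their log2 has a prior count of 2. The p-values measure the spread between libraries, each a pool of 2 mice. Totals of 22742209 to 40910947 counts set the precision, and intervals on counts cover counting error only.

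All 10 members are reported. From pathway lists, at most 4 called genes with the smallest p were to be named per list and comparison, and likeness took the 3 highest correlations among genes averaging at least 1 CPM. Genes given only by level (Bdkrb1, Ptgs2, Il1b, Tnf, Ptges and Ptgis) and the examples from marker lists were picked after their values were seen, and some results are not reported here. The members and lists were chosen with earlier results of these data known. Alternatives were other size factors and filters, DESeq2 1.42.0, limma-voom (limma 3.58.1), a replicate block, a fit to the compared groups alone, a skeletal muscle covariate, a covariate for the source number class, and leaving out libraries.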

Additional observations from a re-analysis of the deposited data

Results flagged for a closer look

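The 4 libraries of each group were checked for a value far from the others, over 40 sets (10 genes in 4 groups), where chance marks about 1 set in 20. Ptger2 in WT vehicle 1 stood apart at 1.41 CPM, with its gap to the nearest library at 0.864 of the range of its group. Tnfrsf1a in KI CFA 4 stood apart at 20.0 CPM, the lowest Tnfrsf1a value of all libraries, with a gap of 0.862 of the range of its group.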

How the results depend on the processing

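The fall of Ptgir in KI kept its call and direction under every alternative run, with log2 differences from -1.10 to -0.89 with vehicle, -1.26 to -1.12 with CFA and -1.15 to -1.03 over both injections. No member was called for CFA against vehicle or for the interaction under any of them. F2rl1 and Ptger2 had the lowest counts and the largest spread between libraries, so their differences are the least precise, and a stricter filter on low counts left F2rl1 out of the test.

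The number of members called in KI against WT over both injections was 1, and 3 with DESeq2 (Ptgir, F2rl1 and Il1r1), 3 with limma-voom (Ptgir, F2rl1 and Bdkrb2), 2 with the source number class as a covariate (Ptgir and F2rl1) and 1 to 2 with 1 library left out. Of all genes, DESeq2 called 1872 and limma-voom 1572 there, against 1390. With CFA the number of members called was 1 to 2 with 1 library left out.

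Counts over all genes moved more. The vehicle count of 673 was 1476 with DESeq2, 214 in a fit of the compared groups alone, 257 with the muscle covariate and 132 without KI vehicle 1 and 4, an alternative chosen after seeing the data. It was 284 to 905 with 1 library left out, and under 411 without WT vehicle 3, WT vehicle 4 or any 1 of the KI vehicle libraries. The CFA count of 441 was 667 with DESeq2 and 241 to 652 with 1 library left out, the lower values without WT CFA 2, KI CFA 2 or KI CFA 3. Over both injections 1390 became 721 with the muscle covariate and 778 without KI vehicle 1 and 4. For CFA against vehicle the counts were 11 (DESeq2), 1 (limma-voom) and 0 to 2 (1 library left out) in WT. In KI they were 15 (DESeq2), 1 (compared groups alone) and 0 to 53 (1 library left out, 53 without KI vehicle 2). Over both genotypes the count of 4 was 2 with no filter, 57 with DESeq2, 7 with limma-voom, 0 with the muscle covariate, 1 with the source number class, 0 without KI vehicle 1 and 4, and 0 to 39 with 1 library left out. The cause was not tested.

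The replicate numbers, which follow the order of the titles, showed no pairing of the libraries. Source numbers in the labels recur across groups and were not tested as pairs. Of 24 same-numbered pairs, 3 had a correlation of deviations over 0.1 (range -0.21 to 0.13), and in 5 of the 24 the same-numbered library correlated best. With the replicate block every count of members called was unchanged, and the count over all genes for CFA over both genotypes was 1 in place of 4.

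Differences that changed sign were not called in any fit. In KI against WT over both injections, Ptger1 was 0.0052 with limma-voom, 0.00063 with the muscle covariate and 0.011 without KI vehicle 1 and 4. For CFA in WT, limma-voom gave -0.0067 for Ptger4 and 0.011 for Tnfrsf1a. For CFA in KI without KI vehicle 1 and 4, Ptger1 was -0.0077 and Ptgir 0.0064. For CFA over both genotypes, Ptger1 was 0.0031 with limma-voom and Ptger3 0.0076 without KI vehicle 1 and 4. F2rl1 was -0.020 with the replicate block, -0.17 with the muscle covariate and -0.070 with the source number class. Tnfrsf1a was 0.0019 with RLE factors, 0.00055 with no filter, 0.0020 with DESeq2, 0.034 with limma-voom and 0.0074 with the muscle covariate. The interaction of Ptger2 was 0.0024 with the muscle covariate.

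With 1 library left out, these ranges crossed 0. KI against WT gave -0.0023 to 0.081 for Ptger1 with CFA and -0.016 to 0.031 for Ptger4 over both injections. CFA against vehicle gave -0.18 to 0.49 for F2rl1 and -0.12 to 0.021 for Tnfrsf1a in WT, and -0.46 to 0.11 for F2rl1 in KI. Over both genotypes it gave -0.032 to 0.021 for Ptger1, -0.061 to 0.013 for Ptger3, -0.019 to 0.087 for Ptgir, -0.14 to 0.20 for F2rl1 and -0.030 to 0.054 for Tnfrsf1a. The interaction gave -0.24 to 0.13 for Ptger2, -0.65 to 0.094 for F2rl1 and -0.055 to 0.21 for Il1r1.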
